A study of Paramacrobiotus metropolitanus with 7 samples.

Results

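Cytosolic abundant heat soluble (CAHS) transcripts that were higher in males than in females of the tardigrade Paramacrobiotus metropolitanus were examined in whole-body RNA-Seq libraries. They were the CAHS transcripts with a higher male than female mean and a female mean below 50 TPM (a relative level corrected for transcript length). This rule took 5 of the 13 annotated CAHS transcripts, out of 26306 transcripts in the deposited matrix: PARRI_0016931.t1, PARRI_0002229.t1, PARRI_0002120.t1, PARRI_0002228.t1 and PARRI_0006576.t1. These transcripts were chosen by the male and female means, so their male and female values are given as a description and were not tested. The CAHS transcripts left out had a female mean above 50 TPM, and all of them except PARRI_0004919 also had a higher male mean. The libraries were made from males (n = 4) and females (n = 3) of the cultured TYO strain, with no treatment named. Each library pooled the whole bodies of many individuals that had been reared apart after hatching until the sexual organs could be seen. A library is therefore an average over animals, gonads included. The sex labels were not checked against a marker.

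CAHS proteins are found only in tardigrades. They are disordered in solution, stay soluble on heating and can form fibres and gels as water is lost, and they are known for their part in anhydrobiosis, the survival of near-complete drying in a contracted state called a tun. Tardigrade genomes carry several CAHS genes, and members of the family can be expressed in different tissues. PARRI_0016931 is a CAHS1 ortholog, PARRI_0002229 is a CAHS5 ortholog and PARRI_0006576 is a putative CAHS5 ortholog. PARRI_0002228 and PARRI_0002229 have consecutive locus numbers. The genome positions of the transcripts and their sequences were not used here. Whether reads shared by similar CAHS paralogs were divided between them was not tested.

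The deposited values were TPM rescaled between libraries by TMM (trimmed mean of M values), and a library summed to between 891117 and 1127677. TPM keeps no read depth, and errors are SDs between libraries of one sex. The log2 difference (males minus females) had a median of 0.50 over the 18420 transcripts with at least 1 TPM in at least 3 libraries, so differences are also given relative to this median. Male library 1 stood apart from the other male libraries for the remaining 8 CAHS transcripts. All 8 were highest there, at 3.54 to 8.71 times the mean of male libraries 2 to 4, whereas the median of this ratio over all tested transcripts with a value was 0.951. For this reason the values of the male-elevated transcripts are also given without male library 1.

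PARRI_0016931, the CAHS1 ortholog, had 175, 118, 162 and 109 TPM in male libraries 1 to 4. In female libraries 1 to 3 it had 0.913, 11.8 and 5.65 TPM. The lowest male library was 9.23 times the highest female library, and female library 1 lay far below the other female libraries. The mean was 141 ± 32.4 TPM in males (n = 4, SD) and 6.13 ± 5.47 TPM in females (n = 3, SD), a ratio of 23.0. Without male library 1 the male mean was 130 ± 28.6 TPM (SD, n = 3) and the ratio was 21.2. The ratio depended more on the female libraries, and was 42.9 without female library 2 and 16.1 without female library 1. In whole-body RNA, more cells that express a transcript and more RNA of it per cell cannot be told apart.

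PARRI_0002229, the CAHS5 ortholog, had 94.3, 42.4, 107 and 47.1 TPM in male libraries 1 to 4. It had 1.08, 8.88 and 3.44 TPM in female libraries 1 to 3. The sexes did not overlap, male libraries 1 and 3 were the high ones, and the female libraries came in the same order as for PARRI_0016931. The mean was 72.6 ± 32.6 TPM in males (n = 4, SD) and 4.47 ± 4.00 TPM in females (n = 3, SD), a ratio of 16.3. The ratio was 14.6 without male library 1, 32.1 without female library 2 and 11.8 without female library 1.

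Relative to the male mean, PARRI_0016931 stood at 0.648% in female library 1, 8.38% in female library 2 and 4.01% in female library 3. PARRI_0002229 stood at 1.48%, 12.2% and 4.74% of its male mean in these libraries. Both were thus lowest in female library 1 and highest in female library 2. The medians came in the same order in 251 other transcripts with at least 50 TPM on average in males and at most 2% of that in female library 1, which were picked by that low value. Their median was 6.76% in female library 2 (interquartile range 3.77% to 8.77%) and 4.18% in female library 3 (interquartile range 2.60% to 5.68%). PARRI_0002229 in female library 2 was above that interquartile range, and the other values of both transcripts in female libraries 2 and 3 were within it. The part of a library-wide difference between the female libraries in these values was not tested.

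PARRI_0006576, the putative CAHS5 ortholog, was the weakest of all 13 CAHS transcripts in every library. It had 1.55, 2.35, 3.23 and 1.52 TPM in male libraries 1 to 4. In female libraries 1 to 3 it had 0.374, 0.164 and 0.336 TPM. The sexes did not overlap, and the lowest male library was 4.06 times the highest female library. The mean was 2.16 ± 0.811 TPM in males (n = 4, SD) and 0.291 ± 0.112 TPM in females (n = 3, SD), a ratio of 7.42, and of 8.13 without male library 1. These values rest on few reads. The authors' mean normalized count was 12.3 in males and 1.82 in females, or about 49 and 5 counts over the libraries of a sex. The ratio per library from these counts was 7.35, with an interval of 2.94 to 23.6 (95%, exact binomial, rounded sums) that covers counting error only.

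PARRI_0002120 had 121, 53.8, 55.3 and 47.2 TPM in male libraries 1 to 4. It had 62.7, 26.3 and 16.03 TPM in female libraries 1 to 3. The sexes overlapped, as female library 1 was above male libraries 2, 3 and 4. The mean was 69.5 ± 34.9 TPM in males (n = 4, SD) and 35.0 ± 24.5 TPM in females (n = 3, SD), a ratio of 1.98. This ratio was 1.49 without male library 1 and 3.28 without female library 1. The difference between the means was within the male SD.

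PARRI_0002228, whose locus number precedes that of PARRI_0002229, had 13.6, 10.6, 11.4 and 10.2 TPM in male libraries 1 to 4. It had 13.4, 5.57 and 3.77 TPM in female libraries 1 to 3. The female libraries ran from the level of the males to less than that, and female library 1 was above all male libraries except male library 1. The mean was 11.5 ± 1.5 TPM in males (n = 4, SD) and 7.58 ± 5.12 TPM in females (n = 3, SD), a ratio of 1.51. The ratio was 1.42 without male library 1 and 2.45 without female library 1. For this transcript the difference between the means was within the female SD.

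**Figure D1:**
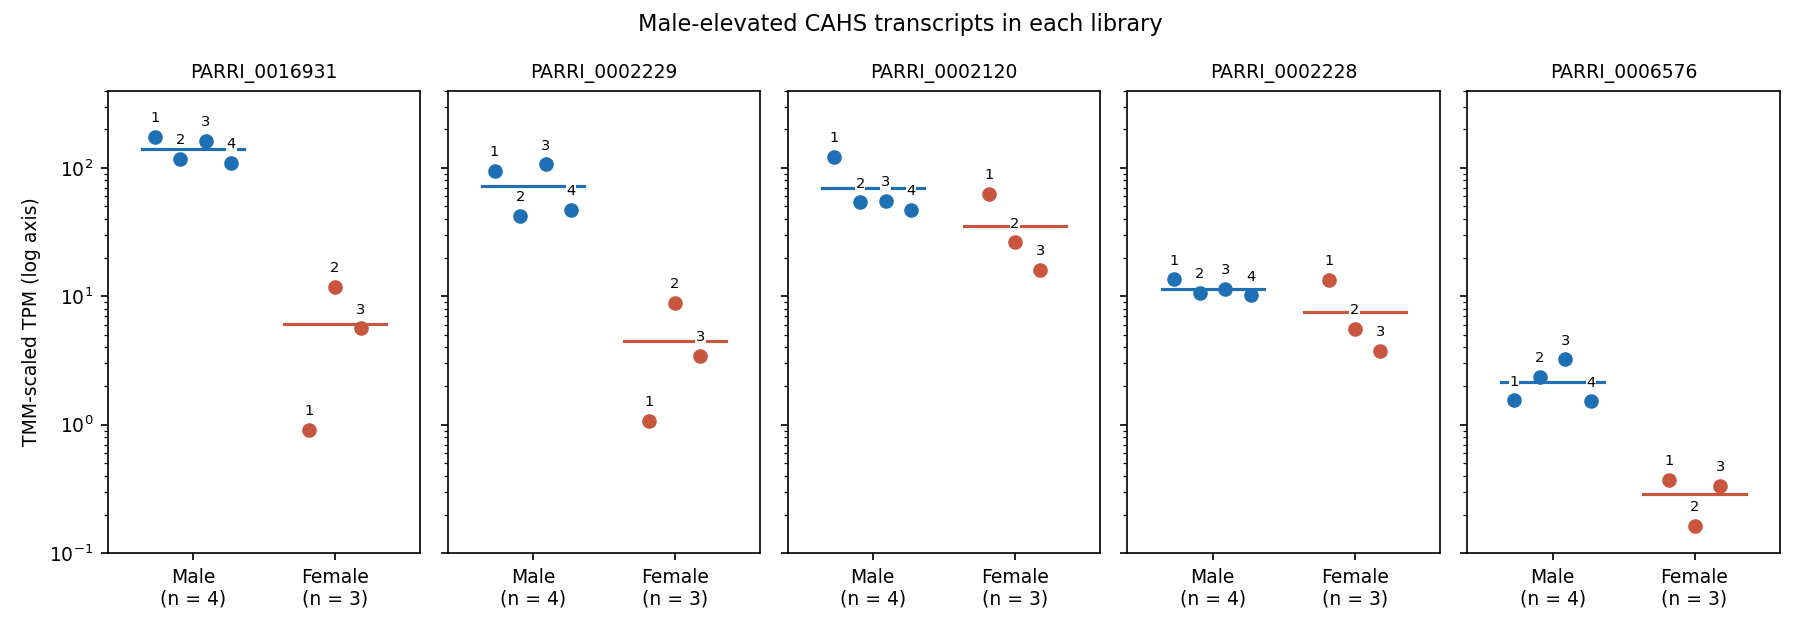
TMM-scaled TPM (log axis) of the 5 male-elevated CAHS transcripts in each library, with male libraries on the left and female libraries on the right of each panel. Points are libraries with their number and horizontal lines are means. PARRI_0016931, PARRI_0002229 and PARRI_0006576 show no overlap between the sexes, whereas female library 1 lies among the male libraries for PARRI_0002120 and PARRI_0002228.

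In all, 3 of the 5 transcripts had all male libraries above all female libraries, and 2 overlapped. Among all 18420 tested transcripts, 28.1% had all male libraries above all female libraries and 25.9% had all male libraries below. As the male and female means chose the 5 transcripts, nothing is read from this count. The log2 difference of log2(TPM + 0.1) in the limma fit was 5.07 (standard error 0.73) for PARRI_0016931 and 4.33 (standard error 0.67) for PARRI_0002229. It was 2.51 (standard error 0.56) for PARRI_0006576, 1.11 (standard error 0.51) for PARRI_0002120 and 0.79 (standard error 0.44) for PARRI_0002228. Relative to the median of all tested transcripts these differences were 4.58, 3.83, 2.01, 0.61 and 0.29. For PARRI_0002228 this relative difference varied with the fit, and was 0.75 over transcripts averaging at least 5 TPM, 0.75 without female library 1 and 0.11 without female library 3. Close to the limits of the rule, PARRI_0002120 had the highest female mean inside it, and the next CAHS transcript outside it, PARRI_0007683, had 71.2 TPM in females. PARRI_0004919 had a ratio of male to female means of 0.538 and was outside it by direction. Every other CAHS transcript outside the rule had a higher male mean and was left out by its female mean. The ratio was 2.65 for PARRI_0020152, 2.49 for PARRI_0017120, 2.46 for PARRI_0007683 and 2.04 for PARRI_0015186. These ratios were above those of PARRI_0002120 (1.98) and PARRI_0002228 (1.51). The rest outside the rule were below both. Male library 1, the highest for each transcript outside the rule, is part of these means.

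Ratios between transcripts of the same library do not depend on the scaling between libraries. The ratio of PARRI_0002229 to PARRI_0002228, the pair with consecutive locus numbers, was 6.95, 3.99, 9.31 and 4.63 in male libraries 1 to 4. In female libraries 1 to 3 it was 0.0804, 1.59 and 0.913. PARRI_0002229 was thus the more abundant of the pair in every male library, and in the females only in female library 2. The ratio of PARRI_0016931 to PARRI_0002229 varied less, between 1.52 and 2.77 in males and between 0.848 and 1.64 in females.

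The ratio of PARRI_0002120 to PARRI_0002228 was 5.06, 4.84 and 4.64 in male libraries 2 to 4. In female libraries 1 to 3 it was 4.68, 4.72 and 4.26. These 6 libraries of both sexes lay within a narrow band, while male library 1 stood at 8.95. The mean was 5.87 ± 2.06 (SD, n = 4) in males, 4.85 ± 0.207 (SD, n = 3) in males without library 1 and 4.55 ± 0.257 (SD, n = 3) in females. Among females, PARRI_0016931 and PARRI_0002229 were lowest in library 1, as were 55.2% of all tested transcripts, while PARRI_0002120 and PARRI_0002228 were highest there, as were 29.9%.

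**Figure D2:**
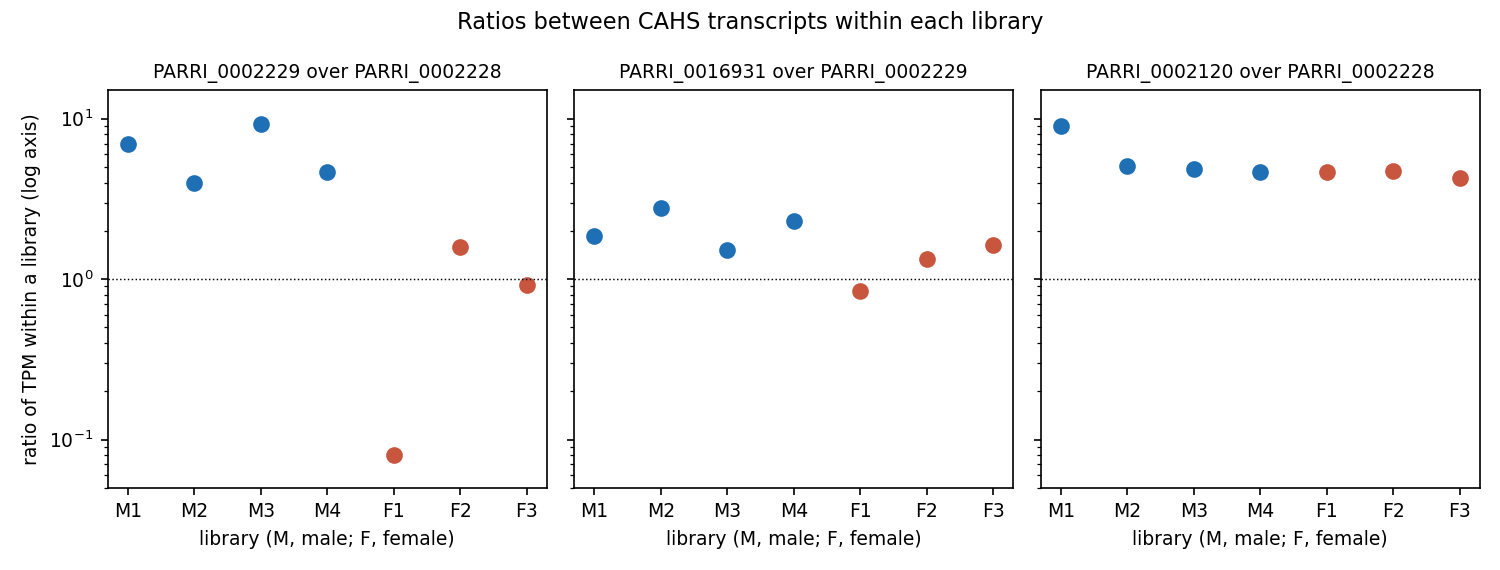
Ratio of TPM between pairs of male-elevated CAHS transcripts within each library (log axis), with male libraries (M1 to M4) left of female libraries (F1 to F3) and a dotted line at 1. PARRI_0002229 over PARRI_0002228 is 3.99 or more in every male library and 1.59 or less in every female library, whereas PARRI_0002120 over PARRI_0002228 lies between 4.26 and 5.06 in all libraries but male library 1.

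The 5 transcripts were a small part of the CAHS transcripts in either sex. The rule asked for a low female mean and a higher male mean, so the share and its direction are given as a description only. Together they made up 2.17%, 5.46%, 7.33% and 5.14% of the summed CAHS TPM in male libraries 1 to 4. In female libraries 1 to 3 they made up 0.973%, 0.698% and 0.647%. The sexes did not overlap, and male library 1 was the lowest of the males. The share was 5.03 ± 2.13% (SD, n = 4) in males and 0.772 ± 0.175% (SD, n = 3) in females, and 5.98 ± 1.18% (SD, n = 3) in males without library 1. In their own sum, PARRI_0016931 and PARRI_0002229 held between 66.3% and 79.3% in males and between 2.54% and 39.3% in females. PARRI_0002120 held between 16.3% and 29.9% in males and between 49.9% and 79.9% in females, and was the most abundant of the 5 in each female library. PARRI_0016931 was the most abundant of the 5 in each male library.

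By level, PARRI_0016931 ranked between 7 and 9 of the 13 CAHS transcripts in male libraries and between 10 and 12 in female libraries. PARRI_0002229 ranked 10 or 11 in males and 11 or 12 in females. PARRI_0002120 ranked between 9 and 11 in males and 9 in every female library, and PARRI_0002228 ranked 12 in males and between 10 and 12 in females. The low ranks in females follow from the rule, which asked for a low female mean. Among all transcripts with a value above 0, PARRI_0016931 stood between the 94.0th and the 95.3rd percentile in male libraries. In female libraries 1 to 3 it stood at the 21.6th, the 54.9th and the 47.1st percentile. PARRI_0016931 was thus an abundant transcript in males although most CAHS transcripts were more abundant still.

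**Figure D3:**
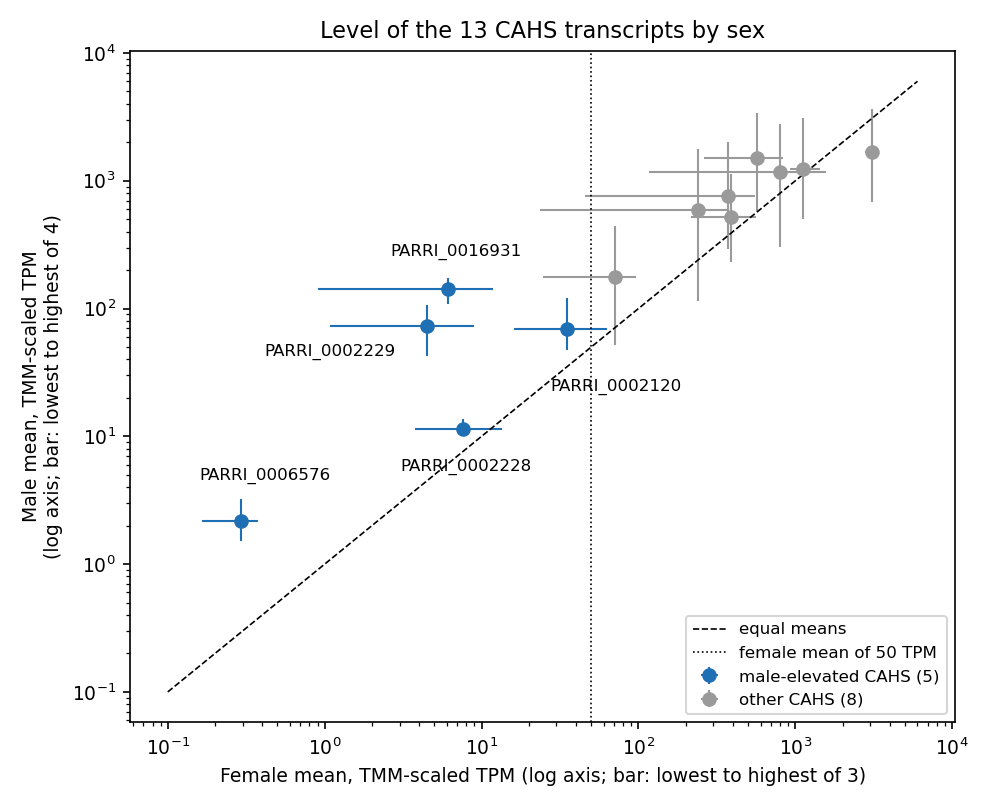
Male mean against female mean of TMM-scaled TPM (both log axes) for the 13 CAHS transcripts, with bars from the lowest to the highest library of a sex. The 5 male-elevated transcripts lie above the dashed line of equal means and left of a female mean of 50 TPM by their choice. PARRI_0016931 and PARRI_0002229 lie farthest from the line, with ratios of 23.0 and 16.3.

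The remaining 8 CAHS transcripts had overlapping sexes, and none was called by limma (0 of 8 with an FDR below 0.05, 0 at an unadjusted p below 0.05, against 49.3% of all tested transcripts called). The rule on the male and female means had taken the male-elevated transcripts out of this list beforehand. The count of 0 is therefore a description, and nothing is read from it. The median log2 difference (males minus females) of the remaining 8 was 0.88, with a range from -1.19 to 1.24, against 0.50 over all tested transcripts. Relative to the median of all, this median was 0.38, but -0.16 without male library 1 and -0.38 without female library 3, so its side depended on single libraries. Without male library 1, PARRI_0004919 was called with lower values in males (log2 difference -1.67, standard error 0.39, limma FDR 0.015). The 10 transcripts of the secretory abundant heat soluble (SAHS) family, the heat soluble proteins that are exported from the cell, had a median of 0.09, and 1 of them, PARRI_0012415, was called by limma, with lower values in males (log2 difference -2.65, standard error 0.64, limma FDR 0.011). Without female library 1 the SAHS transcript PARRI_0001332 was also called, with higher values in males (log2 difference 1.35, standard error 0.46, limma FDR 0.039). Transcripts of these lists other than PARRI_0004919, PARRI_0012415 and PARRI_0001332 were called in no fit.

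The spread between male libraries, which the choice of the transcripts did not use, was smaller for the male-elevated transcripts than for the remaining CAHS transcripts. The SD of log2(TPM + 0.1) over the 4 male libraries was 0.18 for PARRI_0002228, 0.34 for PARRI_0016931, 0.50 for PARRI_0006576, 0.62 for PARRI_0002120 and 0.68 for PARRI_0002229. It was between 1.02 and 1.69 for the remaining 8, so the lists did not overlap. The median over the 9962 tested transcripts that averaged 10 TPM or more in males was 0.36. Male library 1 decided this gap. Over male libraries 2 to 4 the SD was between 0.08 and 0.73 for the male-elevated transcripts and between 0.19 and 0.81 for the remaining 8.

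In male library 1, PARRI_0002120 was 2.33 times the mean of male libraries 2 to 4, PARRI_0002229 was 1.44 times, PARRI_0016931 was 1.35 times and PARRI_0002228 was 1.26 times. PARRI_0006576 was 0.653 times. All 5 were below the 3.54 to 8.71 times of the remaining CAHS transcripts, with PARRI_0002120 the closest to them. The summed TPM of the remaining 8 was 18267 in male library 1 and between 3929 and 4284 in male libraries 2 to 4. In female libraries it was between 4490 and 7988.

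**Figure D4:**
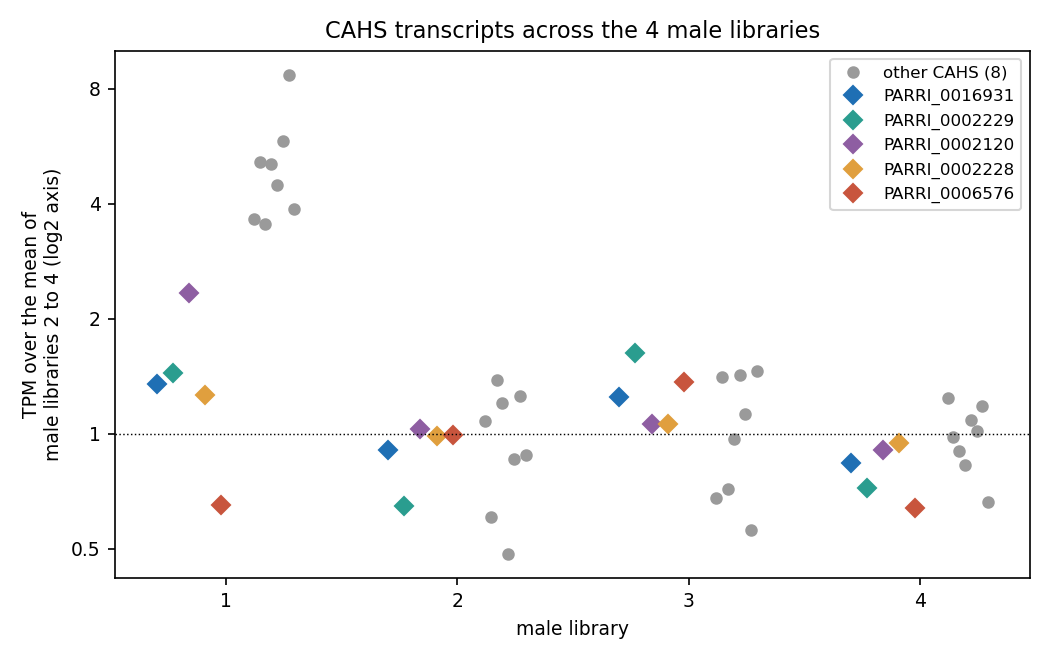
TPM of each CAHS transcript in each male library over its mean in male libraries 2 to 4 (log2 axis), with the 5 male-elevated transcripts as diamonds and the remaining 8 as grey circles. In male library 1 the grey circles lie between 3.54 and 8.71 and the diamonds between 0.653 and 2.33.

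Between female libraries the spread was wide. The SD of log2(TPM + 0.1) was 1.83 for PARRI_0016931, 1.47 for PARRI_0002229, 0.99 for PARRI_0002120, 0.92 for PARRI_0002228 and 0.46 for PARRI_0006576. The median over the 9609 tested transcripts that averaged 10 TPM or more in females was 0.52. PARRI_0016931 differed 12.9-fold and PARRI_0002229 8.25-fold between the lowest and the highest female library. The spread of PARRI_0006576 and of the other low values includes counting error.

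The transcripts most alike in profile were found by the root mean square distance of log2(TPM + 0.1), centred per transcript, over the 7 libraries. Since these profiles include the difference between the sexes, they are a description. Closest to PARRI_0016931 were PARRI_0020964.t1 (distance 0.08) and PARRI_0012325.t1 (distance 0.09). PARRI_0020964 had 60.1, 43.9, 61.3 and 37.8 TPM in male libraries 1 to 4 and 0.246, 4.62 and 2.07 TPM in female libraries 1 to 3. It had the same order of the female libraries and the higher level in male libraries 1 and 3. As it was picked for likeness over these libraries, both traits follow from the choice. Within a distance of 0.50 lay 293 transcripts, or 1.59% of the others tested. Closest to PARRI_0002229 were PARRI_0011899.t1 (distance 0.22) and PARRI_0008587.t1 (distance 0.22), and 197 transcripts lay within 0.50.

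PARRI_0016931 and PARRI_0002229 were 0.51 apart, and each was at least 1.43 from the other male-elevated CAHS transcripts. PARRI_0002120 and PARRI_0002228 were 0.34 apart. Closest to PARRI_0002228 were PARRI_0022406.t1 (distance 0.11) and PARRI_0014655.t1 (distance 0.13), and 1827 transcripts lay within 0.50, so this profile was a common one. Closest to PARRI_0002120 were PARRI_0013644.t1 (distance 0.21) and PARRI_0020291.t1 (distance 0.21), and 587 transcripts lay within 0.50. PARRI_0013644 had 574 TPM in male library 1 and between 205 and 264 TPM in male libraries 2 to 4, with 235, 136 and 54.0 TPM in female libraries 1 to 3. Closest to PARRI_0006576 were PARRI_0020289.t1 (distance 0.28) and PARRI_0009209.t1 (distance 0.31), both also weak, with male means of 2.24 and 4.78 TPM. The nearest of the remaining CAHS transcripts was PARRI_0010208 for PARRI_0002120 (distance 0.59) and for PARRI_0002228 (distance 0.67). It was PARRI_0020152 for PARRI_0016931 (distance 2.25), for PARRI_0002229 (distance 1.81) and for PARRI_0006576 (distance 1.24).

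To see whether the transcripts numbered next to these loci differed between the sexes too, the transcripts of loci numbered within 10 of a male-elevated CAHS locus were taken. The rule did not use their values. They were 89 transcripts of 80 locus numbers, of which 75 passed the filter on low values. With limma, 35 of the 75 passed an FDR of 0.05, or 46.7%, against 49.3% of all tested transcripts. Of these, 12 were higher in males (16%, against 25.3% of all) and 23 were lower in males (30.7%, against 23.9% of all). Their median log2 difference (males minus females) was -0.03, against 0.50 over all tested transcripts. Relative to the median of all, it was -0.53, but -0.27 over transcripts averaging at least 5 TPM and -0.28 under quantile normalization. The p-values of these fits measure the spread between tubes of pooled animals, and nothing in the labels says that the tubes came from separate cultures. Without female library 3, 20 of 74 passed (27.0%, against 34.5% of all in that fit), 10 in each direction. Without female library 2, 25 of 73 passed (34.2%, against 39.4% of all), 14 higher and 11 lower in males, so the larger number of transcripts lower in males did not hold without either library.

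PARRI_0016930, numbered just before PARRI_0016931, had the largest difference of these transcripts. It had 25.5, 25.8, 13.9 and 28.0 TPM in male libraries 1 to 4. It had 0.611 TPM in female library 1 and was listed at 0 in female libraries 2 and 3, so the sexes did not overlap. It passed the filter on low values only through the male libraries, where it was higher, and was also called without that filter. The log2 difference was 6.88 (standard error 0.74, limma FDR 0.00050), and it lay between 6.40 and 7.82 with each library left out in turn. As female libraries 2 and 3 were at 0, its size depended on the pseudocount, and it was 4.33 with a pseudocount of 1 TPM and 5.89 under quantile normalization. Its order of libraries was not that of PARRI_0016931, as it was lowest among males in library 3 and detected among females only in library 1. On the other side of PARRI_0016931, PARRI_0016932.t2 was not called by limma (log2 difference 2.31, limma FDR 0.11), and PARRI_0016932.t1 did not pass the filter. Farther off, PARRI_0016939 and PARRI_0016940 were lower in males, with 0.195 and 0.664 TPM in males and 1.93 and 6.75 TPM in females (limma FDR 0.015 and 0.011). PARRI_0016939 passed the filter on low values only through the female libraries, where it was higher, and lay near the floor. Its call held in the fit without that filter, but it could not be fitted with a female library left out. Of the 16 tested transcripts around PARRI_0016931, 2 were higher (12.5%, against 25.3% of all tested) and 4 lower in males (25%, against 23.9% of all tested).

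PARRI_0002227 is numbered just before PARRI_0002228. It is a candidate ortholog of the splicing regulator sxl by sequence search, but the study's phylogenetic analysis could not decide whether it is sxl. It had 26.9, 33.2, 20.8 and 27.7 TPM in male libraries 1 to 4 and 13.7, 7.42 and 2.42 TPM in female libraries 1 to 3. The sexes did not overlap, and the female libraries came in the same order as for PARRI_0002228 and PARRI_0002120. Its log2 difference of 2.07 (standard error 0.54, limma FDR 0.014) was relative to the median of all 1.57. PARRI_0002230, numbered just after PARRI_0002229, had between 0.541 and 1.03 TPM in males and between 0.0980 and 0.940 TPM in females and did not pass the filter. Of the 21 tested transcripts around this pair, 2 were higher (9.5%, against 25.3% of all tested) and 9 lower in males (42.9%, against 23.9% of all tested). The largest differences among those lower in males were those of PARRI_0002234, with 8.29 ± 1.14 TPM in males (n = 4, SD) and 40.4 ± 13.6 TPM in females (n = 3, SD), and PARRI_0002235, with 12.2 ± 2.83 TPM in males (n = 4, SD) and 46.5 ± 14.6 TPM in females (n = 3, SD) (limma FDR 0.0011 and 0.0024).

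Around PARRI_0002120, 8 of the 20 tested transcripts were higher (40%, against 25.3% of all tested) and 7 lower in males (35%, against 23.9%). Together 75% were called, against 49.3% of all tested. Whether a window of this size differs from all transcripts was not tested. PARRI_0002112 had 4.49 ± 1.44 TPM (SD, n = 4) in males and was listed at 0 in female libraries 1 and 2, with 0.206 TPM in female library 3 (limma FDR 0.00083). It passed the filter on low values only through the male libraries, where it was higher, and was also called without that filter. PARRI_0002124 had 9.44 ± 1.57 TPM in males (n = 4, SD) and 85.8 ± 29.0 TPM in females (n = 3, SD). Its log2 difference was -3.13 with a standard error of 0.30 (limma FDR 0.00038). PARRI_0002126 had 6.79 ± 0.971 TPM in males (n = 4, SD) and 37.5 ± 14.7 TPM in females (n = 3, SD) (limma FDR 0.0010). This window thus held transcripts of both directions. Whether consecutive locus numbers are neighbours in the genome was not checked. PARRI_0002119, of the preceding number, was higher in males (log2 difference 2.12, limma FDR 0.0023) and PARRI_0002121, of the next number, was lower (log2 difference -1.27, limma FDR 0.016).

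Around PARRI_0006576, 3 of the 18 tested transcripts were called, all lower in males (16.7%, against 23.9% of all called lower and 49.3% called in either direction). They were PARRI_0006566, PARRI_0006570 and PARRI_0006573.t2, with log2 differences of -2.28, -1.25 and -1.38 (limma FDR 0.016, 0.039 and 0.025). PARRI_0006573.t1, of the same locus as PARRI_0006573.t2, was not called (log2 difference -0.48, limma FDR 0.16). PARRI_0006570 kept its call in 5 of 13 alternative fits, PARRI_0006573.t2 in 10 and PARRI_0006566 in 12, its call being lost without female library 3. PARRI_0006575 and PARRI_0006577, of the numbers before and after, were not called by limma (FDR 0.27 and 0.14).

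**Figure D5:**
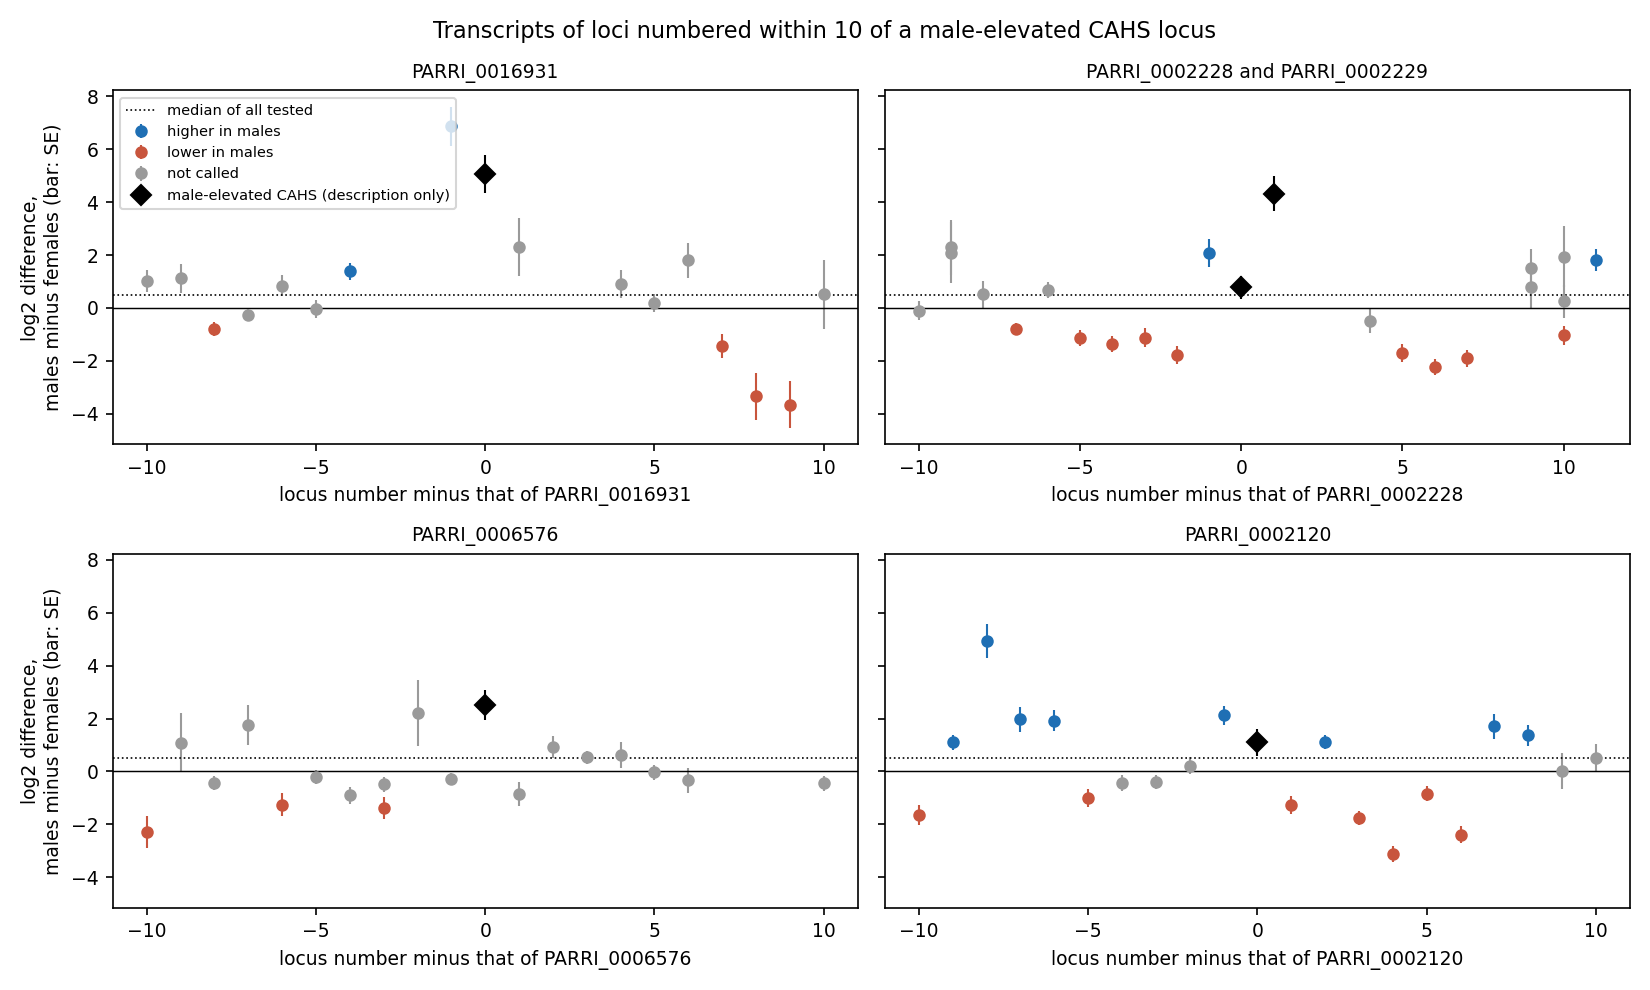
Log2 difference (males minus females, with its standard error) of tested transcripts by locus number, relative to the number of a male-elevated CAHS locus, in 4 windows. Blue and red points were called by limma as higher and lower in males, grey points were not called, black diamonds are the male-elevated CAHS transcripts, and the dotted line is the median of all tested transcripts at 0.50. Of 75 points around the diamonds, 12 are blue and 23 are red.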

How the data were processed

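Whole-body poly A RNA-Seq libraries of P. metropolitanus, 4 of males and 3 of females, were grouped by the sex in their labels. The authors mapped reads to predicted coding sequences with RSEM 1.3.3 and deposited a signal per transcript and library, TPM scaled by TMM. Their deposited DESeq2 1.38.0 table also holds fold changes and p-values, which were not used. From it only the mean normalized count per sex was taken.

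Sexes were compared with limma 3.58.1 (R 4.3.3) on log2(TPM + 0.1), in a model that held sex alone and a prior variance with a trend. Tests were two-sided, and a Benjamini-Hochberg FDR below 0.05 was called, over transcripts with at least 1 TPM in at least 3 libraries. Counts, which the study tested, were not used here. TPM keeps no depth. The fit was tested on simulated data. Other calculations used Python 3.11.15, pandas 2.3.3, NumPy 2.4.6, SciPy 1.17.1 and matplotlib 3.10.9.

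The CAHS and SAHS lists are the study's annotation. The male-elevated transcripts, lists and windows were chosen with earlier results of these data known. Named beside them were at most 3 transcripts per window with the largest absolute log2 difference among those past the FDR without overlap between the sexes, and the 2 most alike transcripts of each. PARRI_0002227 was added because the study names it. Adjoining locus numbers were named after their values were seen, as were PARRI_0004919, PARRI_0012415 and PARRI_0001332. No identifier was matched in the RefSeq gene table of assembly Prichtersi_v1.0, so positions and sequences are not given. Alternatives were another pseudocount, other filters, quantile normalization, an untrended prior, a replicate block, a narrower window and leaving out each library. Values without male library 1, ratios without each library and the shares called in each alternative were added after seeing the data.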

Additional observations from a re-analysis of the deposited data

Results flagged for a closer look

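In 6 of 25 transcripts looked at, 1 of the 4 male libraries lay far from the nearest of the rest. Chance gives this in about 1 in 20 independent groups of normally distributed values. These transcripts share the same 4 libraries, so their count is not measured against that rate. Male library 1 was the high one for PARRI_0002120 (121 TPM, against 47.2 to 55.3 TPM in the other male libraries). It was also high for 3 of the remaining CAHS transcripts, PARRI_0013693 (3087 TPM, against 503 to 729 TPM), PARRI_0015186 (2004 TPM, against 295 to 385 TPM) and PARRI_0017120 (1769 TPM, against 114 to 255 TPM). Male library 1 was low for PARRI_0002235 (8.01 TPM, against 13.3 to 13.9 TPM). Male library 3 was high for PARRI_0016939 (0.683 TPM, against 0 to 0.0980 TPM). PARRI_0013644 had 574 TPM in male library 1, against 205 to 264 TPM, but it was picked for its likeness to PARRI_0002120 and is not among the 6.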

How the results depend on the processing

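The log2 differences (males minus females) of the 5 male-elevated CAHS transcripts stayed positive, also relative to the median of all, in every alternative that could be fitted. A higher male mean in these same libraries chose the transcripts, so nothing is read from this sign. Measured against the SD of log2(TPM + 0.1) pooled within the sexes, the difference of PARRI_0006576 (SD 0.48) moved by more than 1 SD, to 1.26 with a pseudocount of 1 TPM and to 0.65 under quantile normalization. The other 4 moved by less than this SD (0.60 to 1.18). PARRI_0006576 does not reach a mean of 5 TPM and has no value under that filter. Over the fits that left out 1 library each, they ranged from 4.06 to 5.84 for PARRI_0016931, from 3.57 to 5.04 for PARRI_0002229, from 2.25 to 2.67 for PARRI_0006576, from 0.66 to 1.64 for PARRI_0002120 and from 0.39 to 1.29 for PARRI_0002228. The number of transcripts called at the loci numbered nearby ranged from 20 (27.0%, against 34.5% of all in that fit) without female library 3 to 44 (60.3%, against 58.2% of all) without female library 1. Without female library 2 more were higher (14) than lower (11) in males. Within 5 locus numbers, 17 of 35 were called (48.6%, against 49.3% of all tested transcripts). Under quantile normalization 35 were called (46.7%, against 42.5% of all in that fit), 15 higher and 20 lower in males. The remaining CAHS transcripts called ranged from 0 to 1 and the SAHS transcripts from 1 to 2. The share of the summed CAHS TPM ranged from 4.26% to 5.98% in males and from 0.672% to 0.835% in females. The median log2 difference of all tested transcripts, 0.50, was 0.03 over transcripts averaging at least 5 TPM and 0.01 under quantile normalization.

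The replicate numbers were not taken to pair the libraries. The correlation of deviations from the group means between libraries of the same number was -0.01, 0.03 and 0.25. Between libraries of different number it lay between -0.26 and 0.26. With replicate number as a block, 29 nearby transcripts were called (38.7%, against 41.2% of all in that fit), 13 higher and 16 lower in males. TPM keeps no depth, but the authors' mean normalized counts, which are not raw counts, give an approximate counting error of the male over female ratio. The intervals (95%, exact binomial) were 17.7 to 27.3 for PARRI_0016931, 12.6 to 19.8 for PARRI_0002229, 1.71 to 2.11 for PARRI_0002120, 1.17 to 1.76 for PARRI_0002228 and 2.94 to 23.6 for PARRI_0006576. These intervals leave out the spread between libraries and are no test of the difference between the sexes, which chose the transcripts.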
